A study of Mus musculus with 12 samples.

Results

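The genes described here encode the proteins that bind, activate, transport and oxidize long-chain fatty acids in mouse kidney cells, together with 4 transcription regulators of that pathway. They were taken from the deposited gene table by symbol: fatty acid binding proteins (Fabp), acyl-CoA synthetases (Acsl), carnitine palmitoyltransferases (Cpt1 and Cpt2) and the carrier Slc25a20, acyl-CoA dehydrogenases (Acad), the Hadh, Acaa, Ech, Eci and Decr enzymes, the electron transfer flavoprotein genes (Etf), acyl-CoA oxidases (Acox), acyl-CoA thioesterases (Acot), and Ppara, Ppard, Ppargc1a and Ppargc1b. In all, 60 of 23378 genes in the table had such a symbol, and the pseudogene Fabp3-ps1 was left out. Of these, 56 had enough counts to be tested, beside 14180 genes tested in all. Acot12, Acox2, Eci3 and Fabp12 did not pass the filter on low counts, with 65, 27, 38 and 22 counts over all libraries.

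The study compared macula densa cells, the salt-sensing plaque of tubule epithelium beside the glomerulus, with other kidney cells of the same kind of mouse. All animals were C57BL/6 mice carrying nNos-CreERT2 and the mTmG reporter (called MD-GFP), in which an inducible Cre driven from the neuronal nitric oxide synthase locus turns macula densa cells green while other cells stay red. Macula densa cells were sorted as green cells and control cells as the brightest red cells, which the labels take to stand for distal tubule and collecting duct epithelium. Mice had received either control diet or a low salt diet with enalapril, which blocks angiotensin converting enzyme, at 150 mg/L in the drinking water (together called LS+E), for 14 days before the kidney cortex was digested. There were 2 macula densa libraries on each diet and 4 control-cell libraries on each diet, and ages were not given in the sources used here. The labels do not say whether libraries of a group came from separate animals, so the p-values measure the spread between these libraries, which may be partly technical. The sort rests on 1 reporter, and a green cell is one in which the Cre had acted.

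Fatty acids reach mitochondria as acyl-CoA: binding proteins carry them through the cytosol, acyl-CoA synthetases activate them, and the carnitine shuttle, with Cpt1 as its rate-controlling step, passes them across the inner membrane. There, dehydrogenases, hydratases and thiolases shorten the chain in repeated turns and hand electrons to the respiratory chain through the electron transfer flavoprotein, while peroxisomes shorten very long chains. Kidney tubules with high transport work are known to rely on this oxidation, and the nuclear receptors PPAR alpha and PPAR delta with the coactivators Ppargc1a and Ppargc1b drive transcription of many of the genes.

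Total counts ran from 4259020 to 14856542 per library, and 53.5 to 65.0% of them fell on a single gene, Gm42418, which overlaps ribosomal RNA. Values are CPM, the counts of a gene per fixed number of library counts after scaling by the trimmed mean of M values, and 1 count was worth 0.0769 to 0.245 CPM. Nos1, the gene behind the sort, was at 100 to 232 CPM in the 4 macula densa libraries and at 0.109 to 0.734 CPM in the 8 control-cell libraries. Ren1, which codes for renin and is known to rise with this diet, was at 1.88 to 6.19 CPM in control cells on control diet and at 42.7 to 135 CPM on LS+E. The control cells did not look like distal epithelium alone: summed podocyte markers (7 genes) reached 1350 CPM and summed endothelial markers (10 genes) 1640 CPM. In 3 control-cell libraries these sums were low, at 43.7, 135 and 215 CPM for podocyte and 54.2, 379 and 276 CPM for endothelial markers, in replicate 4 on control diet and replicates 1 and 3 on LS+E. The other 5 control-cell libraries had 689 to 1350 and 899 to 1640 CPM. Several comparisons of the populations that rest on these 3 libraries are given below with and without them. The 3 also had the highest member sums of the control cells, at 739, 661 and 802 CPM beside 348 to 456 CPM in the other 5. Leaving them out tends to raise the estimates of members in macula densa over control cells, so that fit is no separate support. In sorted bulk libraries, fewer cells of a type and less RNA per cell cannot be told apart.

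The promoters of 4 members that the results turn on are shown first, since most members had windows rich in GC and without a TATA box. Each is a RefSeq window on GRCm38.p6, 250 bases before to 50 after a transcript start, written 5′ to 3′ on the gene's strand, with GC boxes (GGGCGG, or CCGCCC where the match is on the other strand) in capitals. The positions are chr1:78657575-78657874 for Acsl3 (plus strand), chr3:131272052-131272351 for Hadh (minus strand), chr19:3323051-3323350 for Cpt1a (plus strand) and chr19:55253119-55253418 for Acsl5 (plus strand).
Acsl3: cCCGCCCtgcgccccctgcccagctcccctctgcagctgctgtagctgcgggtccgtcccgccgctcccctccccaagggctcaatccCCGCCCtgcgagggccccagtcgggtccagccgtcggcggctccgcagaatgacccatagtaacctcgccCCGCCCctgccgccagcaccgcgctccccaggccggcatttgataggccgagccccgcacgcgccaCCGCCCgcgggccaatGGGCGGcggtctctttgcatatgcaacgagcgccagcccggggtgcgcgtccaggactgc
Hadh: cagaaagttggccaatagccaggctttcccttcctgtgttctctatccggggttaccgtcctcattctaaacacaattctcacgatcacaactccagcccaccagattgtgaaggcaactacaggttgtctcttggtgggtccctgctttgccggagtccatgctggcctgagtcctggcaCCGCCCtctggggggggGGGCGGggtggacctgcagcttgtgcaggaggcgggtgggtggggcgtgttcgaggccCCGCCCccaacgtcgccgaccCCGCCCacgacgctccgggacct
Cpt1a: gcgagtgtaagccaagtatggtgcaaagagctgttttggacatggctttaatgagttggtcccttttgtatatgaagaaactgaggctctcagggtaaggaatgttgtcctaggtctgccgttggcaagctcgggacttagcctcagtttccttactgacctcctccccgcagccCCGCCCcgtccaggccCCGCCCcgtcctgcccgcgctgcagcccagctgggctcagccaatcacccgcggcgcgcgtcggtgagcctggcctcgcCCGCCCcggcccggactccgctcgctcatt
Acsl5: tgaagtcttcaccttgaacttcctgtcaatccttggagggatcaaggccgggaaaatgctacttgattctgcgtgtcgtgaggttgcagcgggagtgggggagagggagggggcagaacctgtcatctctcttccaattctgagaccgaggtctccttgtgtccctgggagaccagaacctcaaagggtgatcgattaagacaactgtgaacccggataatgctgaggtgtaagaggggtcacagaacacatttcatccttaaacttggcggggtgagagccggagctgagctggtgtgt
Acsl3, Hadh and Cpt1a hold 5, 4 and 3 GC boxes in these windows, and the Acsl5 window holds 0. Windows were found for 49 members (55 windows of 300 bases, since some genes have several starts). A GC box on either strand was in 69.1% of them, beside 35.7% of all 32851 windows, and their median GC content was 58.3%, beside 52.7%. The letters TATAAA were in 3.64% of member windows and 13.6% of all windows. The direct repeat of AGGTCA with any 1 base between the copies, the form to which PPAR binds with its partner, was in 0 of the 55 windows and in 0.0396% of all windows, and the extended single copy TNAAGGTCA was in 1 member window, of Acsl6 (1.82%, beside 1.28%). These matches are descriptions of letters and carry no test.

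In macula densa cells the acyl-CoA synthetases Acsl3, Acsl4 and Acsl5, the mitochondrial dehydrogenase Hadh and the coactivator Ppargc1b were higher than in control cells, and the binding proteins Fabp4 and Fabp5 were lower, when both diets were averaged. The fold changes lay between 1.84 (Hadh) and 2.89 (Acsl3) for the genes that were higher. These are 5 members higher and 2 lower of 56 tested, or 12.5% called at an adjusted p of 0.05 (edgeR quasi-likelihood test, Benjamini-Hochberg over all genes), beside 21.3% of all genes tested (7.48% higher and 13.9% lower). The median log2 fold change was 0.17 over the members and -0.06 over all genes. On control diet alone 3 members were higher and 0 lower, beside 6.61% of all genes called (2.69% higher and 3.92% lower), with medians of 0.33 and -0.05. On LS+E 2 were higher and 0 lower, beside 7.27% of all genes called (3.15% higher and 4.13% lower), with medians of 0.02 and -0.06. With all libraries, the share of members called in both directions together was below the share of all genes in each of these comparisons. The share called higher was above that of all genes, at 5.36, 3.57 and 8.93% on control diet, on LS+E and averaged, beside 2.69, 3.15 and 7.48%. These shares rest on 3, 2 and 5 members, so the counts by themselves are no result about the members. The heat map of members by library shows the same unevenness.

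**Figure D1:**
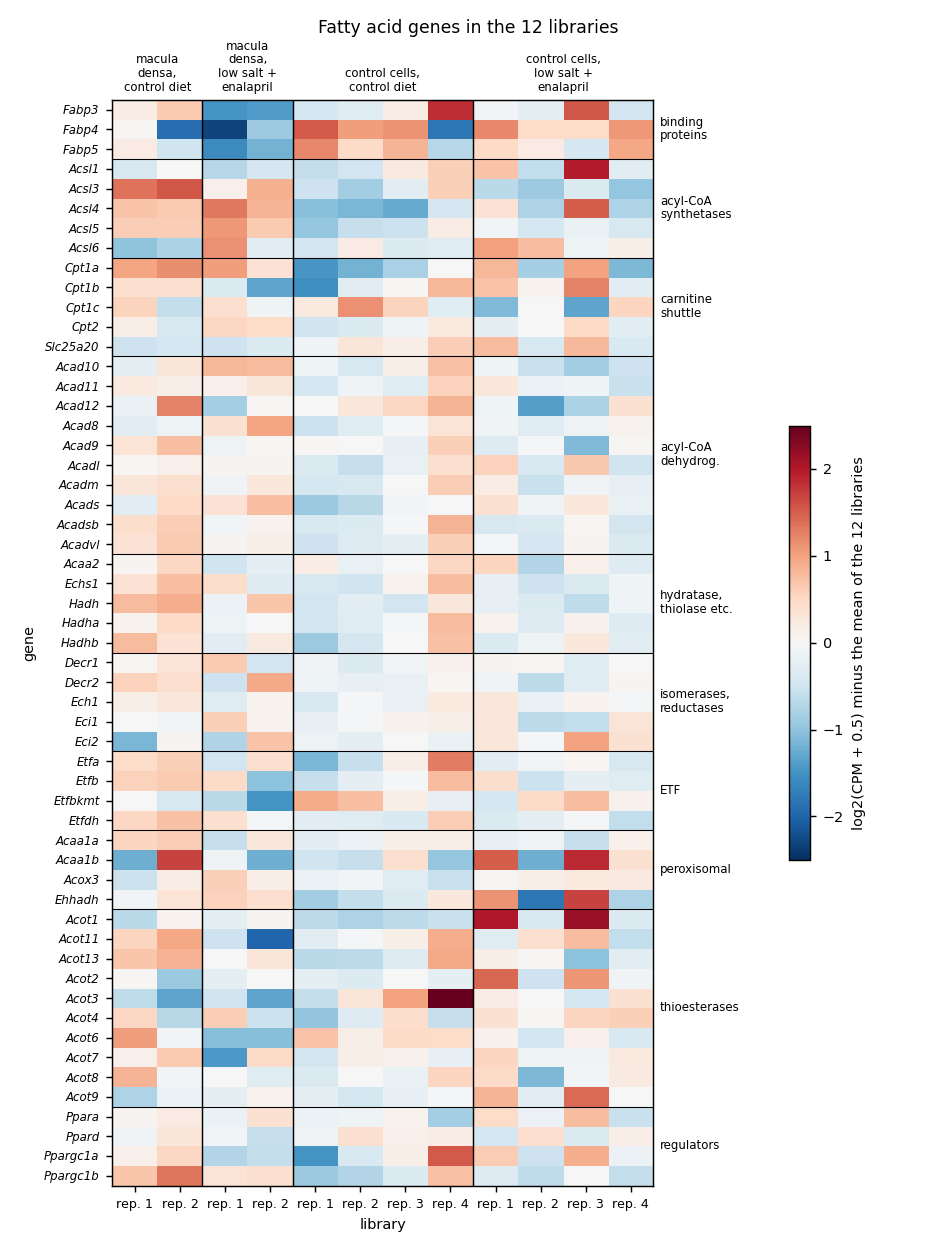
55 of the 56 tested members (rows, by role) in the 12 libraries (columns, by group), coloured by log2(CPM + 0.5) minus the gene's mean over the libraries. Acsl3, Acsl4, Acsl5 and Cpt1a are above their mean in the 4 macula densa libraries, while control-cell replicates 1 and 3 on LS+E stand out in Acsl1, Acot1, Acot2 and Ehhadh.

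Binding proteins were the only role with calls below control cells. Fabp4, the adipocyte and endothelial binding protein, was at 2.05 and 0.163 CPM in macula densa cells on control diet and at 0 and 0.82 CPM on LS+E. Control cells had 6.67, 4.6, 4.95 and 0.207 CPM on control diet and 5.23, 2.94, 2.94 and 4.78 CPM on LS+E. Every control-cell library but replicate 4 on control diet lay above all macula densa libraries, and that replicate was also the one with the lowest endothelial marker sum. Averaged over the diets, the log2 fold change of Fabp4 was -2.56 (SE 0.85, adjusted p = 0.0497 by edgeR), a call at the edge of the threshold that was kept in 8 of 22 alternatives.

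Fabp5, the epidermal type binding protein, stood at 1.23 and 0.57 CPM in macula densa cells on control diet and at 0 and 0.164 CPM on LS+E. Its control-cell values were 2.95, 1.6, 2.19 and 0.413 CPM on control diet and 1.61, 1.22, 0.63 and 2.44 CPM on LS+E. Within a diet the populations overlapped only through the lowest control-cell library on control diet, again replicate 4. The averaged log2 fold change was -2.46 (SE 0.73, adjusted p = 0.0308 by edgeR), and on LS+E it rests on 1 count in macula densa cells against 53 in control cells, 18.9-fold lower with a 95% exact interval of 3.25 to 762 for counting error only. All 10 endothelial markers were lower in macula densa cells as well, with summed levels of 14.3 to 179 CPM against 54.2 to 1640 CPM, and the part of these cells in the Fabp4 and Fabp5 values was not tested. The 5 adipocyte markers in the table summed to 2.2 to 3.8 CPM in macula densa and 1.96 to 9.38 CPM in control cells, most of it from Lipe, a lipase that other cells also express, at 1.23 to 3.07 and 1.96 to 5.46 CPM. Adipoq, which defines adipocytes, was at 0 to 0.192 CPM in macula densa cells and at 3.54 CPM at most in control cells.

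Fabp3, the heart type binding protein, had 3.49 and 5.05 CPM in macula densa cells on control diet and 0.766 and 0.82 CPM on LS+E, and 2.03 to 12.1 CPM in the 8 control-cell libraries. Its averaged log2 fold change of -1.30 (SE 0.62) did not pass the test (adjusted p = 0.162 by edgeR). It turns to 0.13 when counts of its pseudogene Fabp3-ps1 are added, which shares 29.2% of the 50-base stretches of Fabp3, so the direction is uncertain. Fabp12 was at 0 in the 4 control-cell libraries on control diet and at 0 to 1.48 CPM in macula densa cells, too few counts for a test.

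The acyl-CoA synthetases, which activate long-chain fatty acids by joining them to coenzyme A, held 3 of the 5 calls above control cells. Acsl3 (chr1:78657825-78707743, plus strand), known for its place at lipid droplets and the endoplasmic reticulum, was at 19.4 and 22.4 CPM in macula densa cells on control diet and 8.05 and 13.9 CPM on LS+E. Control cells had 4.92, 3.76, 6 and 11.2 CPM on control diet and 4.38, 3.67, 5.67 and 3.46 CPM on LS+E. Within each diet the macula densa libraries lay above all control-cell libraries. The log2 fold change was 1.69 (SE 0.37, adjusted p = 0.0203 by edgeR) on control diet, 1.37 (SE 0.40, adjusted p = 0.0572) on LS+E and 1.53 (SE 0.27, adjusted p = 0.00267) averaged.

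Acsl5 (chr19:55251938-55297720, plus strand), a synthetase of mitochondria and endoplasmic reticulum, was the one member for which all 4 macula densa libraries lay above all 8 control-cell libraries, beside 4.31% of all genes, and for 0 members all lay below, beside 5.28%. Its macula densa values were 58.4 and 58.5 CPM on control diet and 81.6 and 60.4 CPM on LS+E. Control cells had 19.2, 25.6, 26.2 and 43.5 CPM on control diet and 36.4, 28.2, 34 and 29 CPM on LS+E. The log2 fold change was 1.03 (SE 0.28, adjusted p = 0.0475 by edgeR) on control diet, 1.15 (SE 0.28, adjusted p = 0.0306) on LS+E and 1.09 (SE 0.20, adjusted p = 0.003) averaged. Exons of Acsl5 overlap 404 bases of Zdhhc6 on the other strand, and those of Acsl3 overlap 244 bases of Utp14b on the same strand, and how the counting treated such reads is not given in the sources used here. The averaged calls of Acsl3 and Acsl5 were kept in all 23 alternatives tried for them. Calls within a diet were less stable: Acsl3 on control diet was kept in 17 of 24 alternatives. Acsl5 was kept in 8 of 24 on control diet and in 14 of 24 on LS+E.

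Acsl4 (chrX:142317993-142390535, minus strand), which prefers arachidonic acid, was at 61.1 and 58.2 CPM in macula densa cells on control diet and 92.7 and 67.3 CPM on LS+E. Control cells had 17.7, 16.4, 15.2 and 27.6 CPM on control diet but 48, 21.5, 107 and 21.4 CPM on LS+E, where replicates 1 and 3 stood apart. The averaged log2 fold change was 1.16 (SE 0.37, adjusted p = 0.0429 by edgeR), and neither diet alone passed the test (adjusted p = 0.082 and 0.443). Without the 3 control-cell libraries low in podocyte and endothelial markers the averaged value was 1.89 (SE 0.14, adjusted p = 6.3e-06). The averaged call was kept in 11 of 23 alternatives and lost in 12, with an adjusted p of up to 0.138.

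Acsl1, the synthetase of liver, fat and muscle, had a negative estimate that did not pass the test, at 9.77 to 16.5 CPM in macula densa cells and 10.5 to 65.7 CPM in control cells (log2 fold change -0.81, adjusted p = 0.227 by edgeR). Acsl6, known from brain, was at 0 to 1.72 CPM. Per kilobase of exon, the averaged macula densa levels were 13.3 CPM per kb for Acsl5, 12.9 for Acsl4, 3.66 for Acsl3, 1.21 for Acsl1 and 0.0538 for Acsl6, and the control-cell levels were 6.22, 6.36, 1.23, 2.18 and 0.0664 CPM per kb. Acsl4 and Acsl5 lie within their spread of each other in both populations. The control-cell mean of Acsl1 rests largely on replicates 1 and 3 on LS+E, at 27 and 65.7 CPM, so its place beside Acsl3 there is not settled. The plot of single members by group shows how far the libraries of each group spread.

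**Figure D2:**
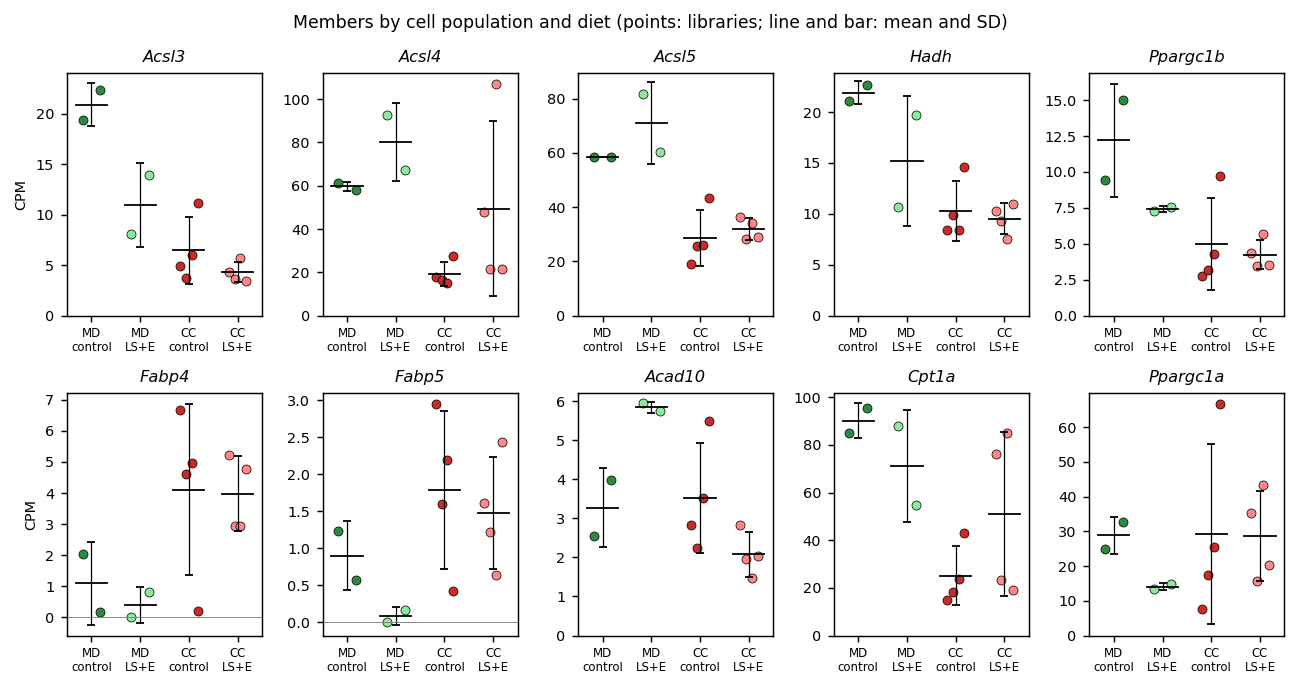
CPM of 10 members in each library (points) with the group mean and SD (line and bar), for macula densa (MD) and control cells (CC) on control diet or LS+E, each panel starting at or below 0. Acsl5 separates the populations completely, at 58.4 to 81.6 CPM against 19.2 to 43.5 CPM, while Cpt1a overlaps through control-cell libraries at 76.2 and 85.1 CPM and Acsl4 through the one at 107 CPM.

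In the carnitine shuttle, Cpt1a (chr19:3322334-3385733, plus strand), the enzyme that commits fatty acids to mitochondrial import, drew the most counts of all members on average. Per length it stood at 10.6 CPM per kb in macula densa and 4.98 CPM per kb in control cells. It was at 85 and 95.4 CPM in macula densa cells on control diet and 87.9 and 54.6 CPM on LS+E. Control cells had 15.1, 18.4, 23.9 and 42.9 CPM on control diet and 76.2, 23.5, 85.1 and 19.1 CPM on LS+E. On control diet the populations did not overlap, whereas on LS+E control-cell replicates 1 and 3 reached the macula densa level. The log2 fold change was 1.85 (SE 0.56, adjusted p = 0.0677 by edgeR) on control diet, 0.48 (SE 0.57, adjusted p = 0.636) on LS+E and 1.16 (SE 0.40, adjusted p = 0.0543) averaged, so Cpt1a did not pass the test in any comparison with all libraries. Without the 3 control-cell libraries named above it was 2.25 (SE 0.25, adjusted p = 0.000185), 1.77 (SE 0.29, adjusted p = 0.00188) and 2.01 (SE 0.19, adjusted p = 2.14e-05).

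Other shuttle genes were low and none passed the test. Cpt1b, the muscle isoform, was at 0.219 to 4.41 CPM and shares 78.6% of its 50-base stretches with the overlapping Gm44502, so its counts are uncertain. Cpt1c, the brain isoform, was at 0 to 2.25 CPM. Cpt2, which rebuilds acyl-CoA inside the mitochondrion, was at 4.48 to 8.81 CPM in macula densa and 4.05 to 8.61 CPM in control cells. Slc25a20, the carnitine-acylcarnitine carrier, was at 1.53 to 1.8 CPM in macula densa and 1.71 to 4.62 CPM in control cells, with a log2 fold change of -0.92 (SE 0.35, adjusted p = 0.0838 by edgeR). Cpt1a and its carrier thus had point estimates of opposite sign, and the difference between them was not tested.

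Of the acyl-CoA dehydrogenases, which take the first oxidation step for chains of different length, 0 of 10 passed the test averaged over the diets, and all 10 had positive point estimates, from 0.05 for Acadl to 0.68 for Acad10. Acadsb, the branched-chain enzyme and the one with the most counts, was at 36.4 and 41.3 CPM in macula densa cells on control diet and 25.3 and 28.4 CPM on LS+E. Its control-cell values were 20.2, 21, 26.2 and 48.6 CPM on control diet and 20.2, 20.6, 27.5 and 19.3 CPM on LS+E. The populations overlapped on control diet through replicate 4, the highest library of all, and on LS+E through replicate 3 (log2 fold change 0.36, SE 0.23, adjusted p = 0.296 by edgeR). Acadvl, Acadl, Acadm and Acads, for very long, long, medium and short chains, had averaged log2 fold changes of 0.43, 0.05, 0.29 and 0.52. Acadl, at 23.8 to 25.4 CPM in macula densa and 15.3 to 37.4 CPM in control cells, had the highest level per length of the role, 12.2 and 11.9 CPM per kb, and Acad12 the lowest, 0.282 and 0.246 CPM per kb. Acadvl shares 26.9% of its 50-base stretches with Dvl2 on the other strand, so its counts are uncertain. Acad8, Acad9 and Acad11, the last 2 acting on long chains, had 0.38, 0.37 and 0.28. Without the 3 control-cell libraries 7 of the 10 passed the test, all higher, from 0.51 for Acadl to 0.88 for Acad10, in a fit that called 31.6% of all genes (12.5% higher and 19% lower).

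Acad10, a less studied dehydrogenase, was at 2.56 and 3.99 CPM in macula densa cells on control diet and 5.94 and 5.74 CPM on LS+E. In control cells it was at 2.84, 2.25, 3.52 and 5.48 CPM on control diet and 2.84, 1.96, 1.47 and 2.03 CPM on LS+E. On LS+E the populations did not overlap, with a log2 fold change of 1.45 (SE 0.40, adjusted p = 0.046 by edgeR) beside -0.10 (SE 0.39) on control diet. The difference between the diet effects in the 2 populations was 1.54 (SE 0.56, adjusted p = 0.657), so a diet-specific difference was not shown. Acad10 shares 16.8% of its 50-base stretches with Acad12, and the call was lost with their counts summed (1.08, adjusted p = 0.13).

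Among the enzymes of the later steps, Hadh (chr3:131233419-131272101, minus strand), the medium and short chain 3-hydroxyacyl-CoA dehydrogenase, was higher in macula densa cells. It was at 21.1 and 22.7 CPM on control diet and 10.7 and 19.7 CPM on LS+E, and control cells had 8.42, 9.87, 8.38 and 14.6 CPM and 10.3, 9.3, 7.56 and 11 CPM. One macula densa library on LS+E lay within the control-cell range. The log2 fold change was 1.09 (SE 0.28, adjusted p = 0.0416 by edgeR) on control diet, 0.67 (SE 0.30, adjusted p = 0.181) on LS+E and 0.88 (SE 0.20, adjusted p = 0.0107) averaged. The call on control diet was kept in 12 of 24 alternatives and lost in 12. The averaged call was kept in 20 of 23 alternatives and lost without macula densa replicate 2 of either diet (adjusted p = 0.0512 and 0.0871) and at a threshold of 0.01.

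The trifunctional protein genes Hadha and Hadhb, which carry out the last 3 steps for long chains, did not pass the test with all libraries. Hadha, which drew the most counts of this role, was at 35 and 46.7 CPM, then 29.9 and 33.1 CPM, in macula densa cells on control diet and on LS+E. Control cells had 23.3, 26.3, 31.5 and 56.6 CPM on control diet and 34.9, 26.2, 35.5 and 25.9 CPM on LS+E, and the ranges overlapped (log2 fold change 0.14, SE 0.23, adjusted p = 0.707 by edgeR). When the 3 control-cell libraries were left out, Hadha passed averaged (0.45, adjusted p = 0.0457) and Hadhb passed on control diet (1.03, adjusted p = 0.0252) but not averaged (0.64, adjusted p = 0.053). With all libraries, Hadhb, Echs1 and Acaa2 had averaged values of 0.37, 0.45 and -0.11, at 9 to 19.2, 6.23 to 13.6 and 4.98 to 10.5 CPM in macula densa and 5.58 to 18.6, 5.39 to 13.9 and 4.16 to 10.7 CPM in control cells. Hadhb shares 18.1% of its 50-base stretches with Gm13910.

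The isomerases and reductases that feed unsaturated chains into the cycle did not pass the test in any comparison with all libraries. Ech1, the one of them with the most counts, was at 14.5 and 16 CPM and at 10.5 and 13.9 CPM in macula densa cells on control diet and LS+E, and at 9.84, 12.5, 11.4 and 15.5 CPM and 15.9, 11.5, 13.9 and 12.5 CPM in control cells. Its averaged difference was 0.09 (SE 0.17, adjusted p = 0.763 by edgeR), the smallest standard error of any member in that comparison. Decr2, the peroxisomal dienoyl-CoA reductase, had 0.69 (SE 0.29, adjusted p = 0.107), at 1.92 to 6.23 CPM in macula densa and 1.71 to 3.15 CPM in control cells. Its mitochondrial relative Decr1 and the isomerases Eci1 and Eci2 had 0.28, 0.20 and -0.32. Eci3, below the filter, had 1.74 and 0.815 CPM in macula densa cells on control diet and 0 counts on LS+E, at least 4.63-fold lower against a floor of 3 counts over the group.

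The electron transfer flavoprotein, which passes electrons from the dehydrogenases to ubiquinone through Etfdh, did not pass the test with all libraries either. Etfb, its beta subunit and the one with the most counts, was at 24.4 and 25.7 CPM and then 22.6 and 7.71 CPM in macula densa cells on control diet and LS+E. Control cells had 10.7, 13.6, 15.9 and 27.8 CPM on control diet and 22.2, 11, 13.7 and 13 CPM on LS+E (log2 fold change 0.28, SE 0.31, adjusted p = 0.569 by edgeR). Etfb shares 43.8% of its 50-base stretches with the overlapping Gm45233, so its level is uncertain. Etfdh had an averaged value of 0.61 (SE 0.22, adjusted p = 0.0662) and Etfbkmt, the methyltransferase that modifies Etfb, -1.78 (SE 0.64, adjusted p = 0.0679). On LS+E Etfbkmt rests on 2 counts in macula densa cells against 32 in control cells (5.72-fold lower, 95% exact interval 1.46 to 49.2 for counting error only).

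With all libraries, no peroxisomal gene passed the test between the populations. The averaged log2 fold changes of the thiolase Acaa1a, the branched-chain oxidase Acox3 and Ehhadh, a bifunctional enzyme of this pathway, were 0.36 (SE 0.21), 0.19 (SE 0.19) and 0.19 (SE 0.53). Acaa1a was at 4.41 to 10.7 CPM in macula densa and 4.41 to 7.65 CPM in control cells, and Acox3 at 5.03 to 11.7 and 4.96 to 9.03 CPM, so the populations overlapped in both. Acaa1b, at 0 to 3.78 CPM, shares 30.5% of its 50-base stretches with Acaa1a.

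Of 10 acyl-CoA thioesterases tested, which release free fatty acids from coenzyme A, 0 passed the edgeR test in any comparison with all libraries. Acot9, a mitochondrial thioesterase and the one with the most counts, was at 4.92 and 7.82 CPM in macula densa cells on control diet and 7.28 and 9.35 CPM on LS+E. Control cells had 7.33, 6.3, 7.52 and 8.37 CPM on control diet and 16.1, 7.1, 24.2 and 8.65 CPM on LS+E, again highest in replicates 1 and 3 (averaged log2 fold change -0.48, SE 0.30, adjusted p = 0.294 by edgeR). Acot13, a mitochondria-associated thioesterase, had the largest positive value of the role, 0.65 (SE 0.37, adjusted p = 0.246). Acot13, without the 3 control-cell libraries, passed the test on control diet (1.53, adjusted p = 0.00694) and averaged (0.95, adjusted p = 0.0178). Acot1, Acot2 and Acot11 had -0.51, -0.56 and -0.54. Acot4, Acot7 and Acot8 lay at 0.02 to 0.14, with at most 1.34, 2.44 and 2.46 CPM in any library. The lowest adjusted p of the role in the averaged comparison was 0.0518 for Acot3, at 0 to 0.383 CPM in macula densa and 0.328 to 9.19 CPM in control cells. Acot3 rests on 3 counts in macula densa cells on control diet against 124 in control cells, of which replicate 4 gave 89 (22.7-fold lower, 95% exact interval 7.59 to 112 for counting error only).

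Of the regulators, only Ppargc1b, a coactivator of PPAR and estrogen-related receptors, was called, and it was higher in macula densa cells. It was at 9.44 and 15 CPM on control diet and 7.28 and 7.55 CPM on LS+E, and control cells had 2.73, 3.19, 4.29 and 9.71 CPM and 4.38, 3.43, 5.67 and 3.56 CPM. One control-cell library, replicate 4 on control diet, reached into the macula densa range. The averaged log2 fold change was 1.05 (SE 0.31, adjusted p = 0.0324 by edgeR), a call kept in 12 of 23 alternatives.

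Its relative Ppargc1a, the better known coactivator of mitochondrial genes, did not pass the test: 25 and 32.7 CPM, then 13.4 and 14.8 CPM, in macula densa cells, and 7.76, 17.3, 25.5 and 66.7 CPM, then 35.4, 15.7, 43.3 and 20.4 CPM, in control cells, on control diet and on LS+E. The averaged log2 fold change of -0.52 (SE 0.47, adjusted p = 0.463 by edgeR) turned to 0.21 without the 3 control-cell libraries. Ppara and Ppard were at 0.413 to 2.31 and 3.94 to 8.32 CPM, with averaged values of 0.20 and -0.18, neither past the test. The plot of averaged fold changes sets all roles side by side.

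**Figure D3:**
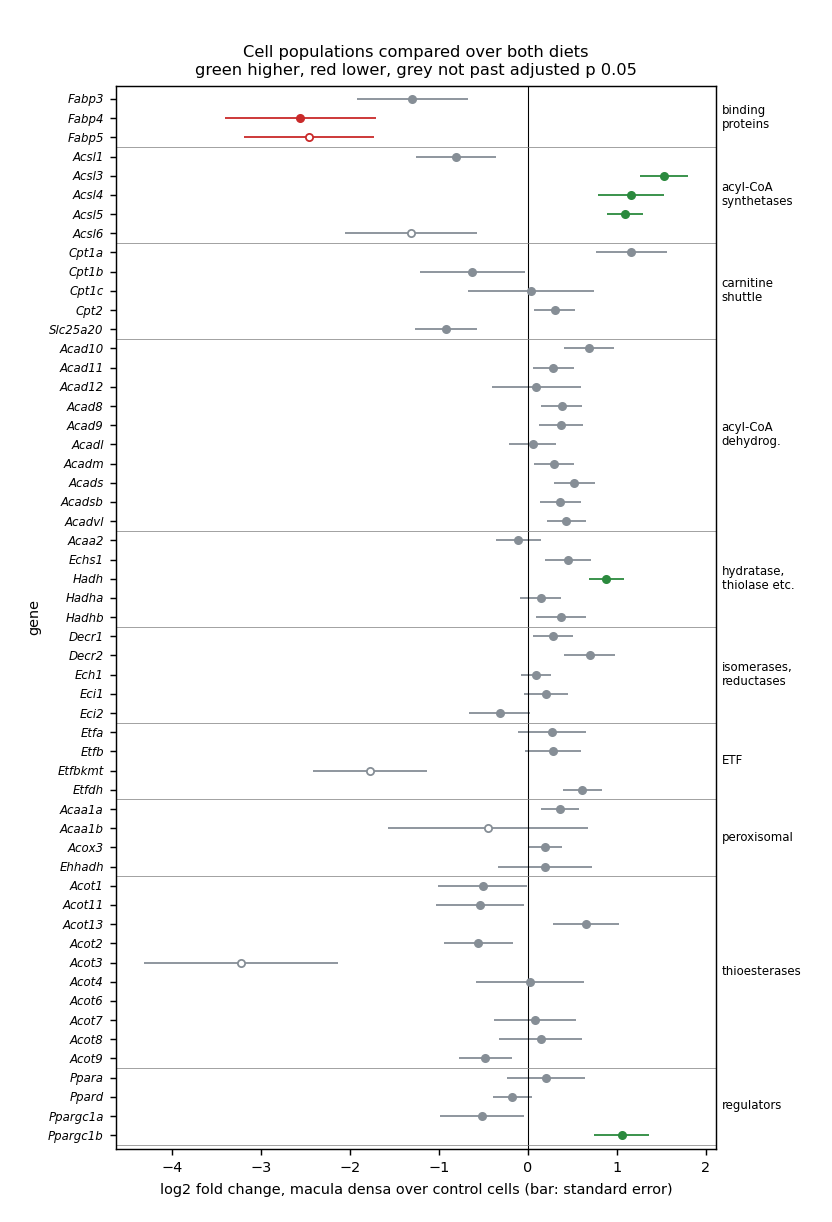
Log2 fold change of macula densa over control cells averaged over both diets (x axis, with its standard error) for 54 tested members by role; Acot6, at 0 counts in macula densa cells on LS+E, is left out, and open points mark members with at most 3 counts in a macula densa group. Acsl3, Acsl4, Acsl5, Hadh and Ppargc1b (green) lie between 0.88 and 1.53, Fabp4 and Fabp5 (red) at -2.56 and -2.46, and the 10 dehydrogenases between 0.05 and 0.68.

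These counts depended on the control-cell libraries. The 3 libraries left out here also had the highest member sums of the control cells, so that fit is no separate support for the calls. Without the 3 control-cell libraries low in podocyte and endothelial markers, 18 members were higher and 3 lower of 55 tested (38.2%) averaged over the diets, beside 31.6% of all genes (12.5% higher and 19% lower). On control diet 12 were higher and 0 lower, beside 22.5% of all genes (8.2% higher), and on LS+E 6 were higher and 1 lower, beside 17.4% (6.16% higher). The member medians were then 0.59, 0.24 and 0.45 on control diet, on LS+E and averaged, while the median of all genes was -0.02 each time. The 7 members called with all libraries were called here too, at 1.88 for Acsl3, 1.89 for Acsl4, 1.32 for Acsl5, 0.95 for Hadh, 1.47 for Ppargc1b, -2.73 for Fabp4 and -2.76 for Fabp5. Added calls in the averaged comparison included Cpt1a, the dehydrogenases described above, Etfdh (0.85, adjusted p = 0.00294 by edgeR) and Ehhadh (1.37, adjusted p = 0.00623). Lower among them was Etfbkmt (-1.90, adjusted p = 0.0482 by edgeR), which had only 2 counts in macula densa cells on LS+E. With control-cell replicate 4 on control diet as the single library left out, 15 members and 3968 of all genes were called averaged. With all libraries these were 7 and 3027, so calls rose among all genes as well. Replicate 4 had the highest member sum of its group, 739 CPM beside 348, 387 and 456 CPM, and also the highest marker sums of the 8 control-cell libraries for several tubule segments. These were 1680 CPM for thick ascending limb, 580 CPM for distal convoluted and connecting tubule, 900 CPM for principal and 383 CPM for intercalated cells, beside at most 1070, 284, 463 and 127 CPM in the other 7. The part of these cells in its member levels was not tested.

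Markers of other tubule cells also moved with the populations. Proximal tubule cells, which oxidize much fatty acid, left a marker sum (12 genes) of 143 and 236 CPM in macula densa cells on control diet and 46 and 102 CPM on LS+E, against 64.6 to 167 CPM in control cells. Of those markers 2 were called higher and 1 lower in the averaged comparison, where 11 of 12 had positive estimates, with a median log2 fold change of 1.04. On control diet 11 of 12 were positive (median 1.49) and on LS+E 9 of 12 (median 0.5). Aqp1 went the other way and weighs on the control-cell sum, at 1.97 to 8.92 CPM in macula densa and 20.8 to 81.3 CPM in control cells. Lrp2, which defines proximal tubule cells, was at 12.8 to 59 CPM in macula densa and 3.57 to 27.5 CPM in control cells. Their part in the member levels was not tested.

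Around the members, 98 other genes of fatty acid handling were tested from 7 lists: 16 were higher and 10 lower there averaged over the diets (26.5%, beside 21.3% of all genes), with a median log2 fold change of 0.18. Uptake and activation had 4 higher and 1 lower of 19, carnitine handling 0 and 0 of 6, peroxisomal oxidation and import 3 and 0 of 17, and mitochondrial oxidation of branched and odd chains with ketone bodies 5 and 2 of 18. Synthesis and storage had 2 higher and 4 lower of 18, other transcription factors 2 and 3 of 15, and further PPAR targets 0 and 2 of 9. Some genes stand on more than 1 list.

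The 5 with the smallest p were Dgat2, Pparg, Acsm3, Esrrg and Mut. Dgat2, which makes triglyceride, was at 5.85 and 5.78 CPM and 6.32 and 12 CPM in macula densa cells on control diet and on LS+E, and 0.656 to 2.94 CPM in control cells (log2 fold change 2.13, SE 0.38, adjusted p = 0.00301 by edgeR). Pparg, another PPAR gene, was at 0 in all 4 macula densa libraries and at 0.286 to 2.23 CPM in control cells. Against a floor of 3 counts per group it was at least 6.59-fold lower on control diet and at least 6.19-fold lower on LS+E. Acsm3, a medium-chain synthetase, had 2.31 (SE 0.47, adjusted p = 0.00566). Esrrg, a nuclear receptor of oxidative cells, was at 24.7 to 40.6 CPM in macula densa and 4.92 to 29.8 CPM in control cells (1.70, SE 0.36, adjusted p = 0.00659). Mut, the methylmalonyl-CoA mutase of odd-chain oxidation, had 1.15 (SE 0.25, adjusted p = 0.00803). Within a diet, 2 of the 98 were higher and 2 lower on control diet, and 3 and 3 on LS+E.

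Low salt plus enalapril changed no member past the test in either population. In macula densa cells 0 of 56 members and 0% of all genes tested were called. An unadjusted p under 0.05 was reached by 6 members (Acad8 and Acsl6 positive, Acot6, Acot11, Fabp3 and Fabp5 negative), beside 11.2% of all genes, and DESeq2 called 0. In control cells 0 members were called, beside 0.00705% of all genes (1 gene, Ren1), 5 had an unadjusted p under 0.05 (all positive, with Acot1, Acot2, Acot9 and Acsl4 among them), beside 6.45%, and DESeq2 called 1, Acot1. The difference of the diet effects called 0 members and 0% of all genes, with 3 members at an unadjusted p under 0.05 (Acad10, Acot6 and Acot11), beside 7.03%, and 0 by DESeq2. On simulated counts, 4-fold changes were recovered for 32% of genes in the macula densa diet comparison and 59.5% in the control-cell one, and 2-fold changes for 0% in both. Each simulation changed 200 genes, kept the group means otherwise equal and took each gene's spread from the fit. In the averaged comparison of populations 2-fold changes were also recovered for 0%, though the data called Hadh there at a log2 fold change of 0.88. The recovered shares therefore need not hold for these data.

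Point estimates in macula densa cells leaned downward: 37 of 56 members were negative and 19 positive, with a median log2 fold change of -0.38, beside -0.02 over all genes. In 24 members both libraries on LS+E lay below both on control diet, beside 21.8% of all genes, and in 8 they lay above, beside 18.8%. The 8 were Acsl4, Acsl5, Acsl6, Cpt2, Acad8, Acad10, Eci1 and Ehhadh. The 24 included Acsl1, Acsl3, Hadh, Hadha, Hadhb, Acadsb, Acadm, Acadvl, Fabp3, Fabp5, Ppargc1a and Ppargc1b. All 5 hydratase, hydroxyacyl dehydrogenase and thiolase genes (-0.71 to -0.37), all 4 electron transfer flavoprotein genes and all 3 binding proteins were negative. The macula densa libraries on LS+E were also the shallower ones, at 4730300 and 5824944 counts against 8637665 and 11085534, and had less signal of some other cell types. Of the proximal tubule markers 11 of 12 were negative, of the endothelial markers 10 of 10 (summed levels 179 and 27.6 CPM on control diet, 18.2 and 14.3 CPM on LS+E) and of the podocyte markers 6 of 7. Principal cell markers were negative in 7 of 8, and distal convoluted and connecting tubule markers in 4 of 6. Intercalated cell markers went up in 5 of 7, while leukocyte markers (2 and 2) and smooth muscle and renin markers (3 and 3) split evenly. The part of depth or of these cells in the member values was not tested. Acot6 was at 1.64 and 0.489 CPM on control diet and at 0 counts in both libraries on LS+E, at least 3.77-fold lower against a floor of 3 counts over the group, with an adjusted p of 0.237 by edgeR, the smallest of the members in this comparison.

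In control cells the estimates did not lean one way (25 positive, 31 negative, median -0.08 beside -0.04 over all genes), but 2 libraries did. Acot1, the cytosolic long-chain thioesterase known as a PPAR alpha target, was at 2.19, 1.97, 2.19 and 2.38 CPM on control diet and at 16.5, 2.69, 18.3 and 2.85 CPM on LS+E. The groups did not overlap (as in 2.1% of all genes), but the size came from replicates 1 and 3, and the test was not passed (log2 fold change 2.21, SE 0.57, adjusted p = 0.411 by edgeR). DESeq2 gave an adjusted p of 0.0421, and with counts of its near copy Acot2 added the value was 1.62 (adjusted p = 0.517), since Acot1 shares 13.6% of its 50-base stretches with Acot2. Leaving out 1 library at a time gave log2 fold changes of 1.8 to 2.58 for Acot1, and the other alternatives gave 0.39 to 2.27.

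The same 2 libraries, replicates 1 and 3 of control cells on LS+E, were the highest of the 8 control-cell libraries in several members. Ehhadh, the peroxisomal bifunctional enzyme, was at 8.84 and 13.4 CPM there and at 0.734 to 4.65 CPM in the other 6. Acsl1 was at 27 and 65.7 CPM beside 10.5 to 24.9 CPM, and Acot2, a mitochondrial thioesterase, at 10.9 and 8.61 CPM beside 2.45 to 3.71 CPM. Cpt1a, Acsl4 and Acot9, given above, had the same order. Not every member did so: Acsl5, Hadh, Acsl3 and Acadsb in these 2 libraries lay within the range of the other 6, apart from Hadh in replicate 3 at 7.56 CPM, just below it.

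Genes outside the members that PPAR receptors are known to drive were high in these 2 libraries too, and the 3 named were chosen after their values were seen. Pdk4, a kinase that spares glucose, was at 36.3 and 95.3 CPM in them and at 1.75 to 5.68 CPM in the other 6. Cyp4a14, a fatty acid omega-hydroxylase, was at 13.1 and 16.2 CPM beside 0 to 1.42 CPM, and Angptl4, a lipase inhibitor, at 14.8 and 11.8 CPM beside 0.102 to 1.22 CPM. Of the 9 tested genes of this list 7 had a positive diet estimate in control cells, with a median log2 fold change of 3.20, and 0 passed the test. These libraries are 2 of the 3 low in podocyte and endothelial markers, they carry, like replicates 1 and 4 on control diet, a number in the description that no macula densa library has, and Adipoq was at 3.54 and 0.63 CPM in them, beside 0 to 0.188 CPM in the other 6. Other adipocyte markers did not all follow: Lipe was at 5.46 and 2.52 CPM beside 1.96 to 4.16 CPM, Lep at 0.231 and 0 CPM, and Retn at 0 in both. The part of cell makeup or adipose tissue in their levels was not tested. The plot by library shows these genes together.

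**Figure D4:**
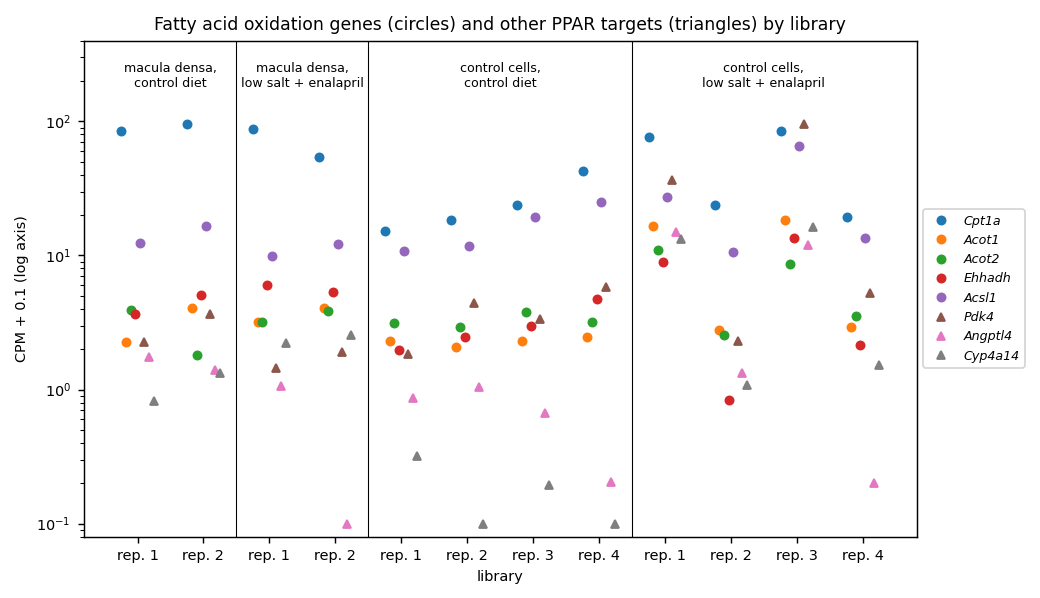
CPM + 0.1 on a log axis for 5 members (circles) and 3 other PPAR targets (triangles) in each of the 12 libraries, by group; points of a library are set slightly apart. Control-cell replicates 1 and 3 on LS+E are the highest control-cell libraries in all 8 genes, with Pdk4 at 36.3 and 95.3 CPM, and replicates 2 and 4 of that group lie near the control-diet libraries.

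In macula densa cells the same genes showed no such libraries: Acot1 was at 2.15 to 3.99 CPM, Pdk4 at 1.34 to 3.58 CPM and Ehhadh at 3.59 to 5.94 CPM over both diets. The difference of the diet effects between the populations was -2.03 (SE 0.99, adjusted p = 0.73 by edgeR) for Acot1 and -1.37 (SE 0.82, adjusted p = 0.774) for Cpt1a, neither past the test. Over the members, 46 of 56 had a negative difference, with a median of -0.45, beside -0.01 over all genes, and the same macula densa libraries enter this value and the diet estimates above. The scatter of diet estimates shows the 2 populations against each other.

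**Figure D5:**
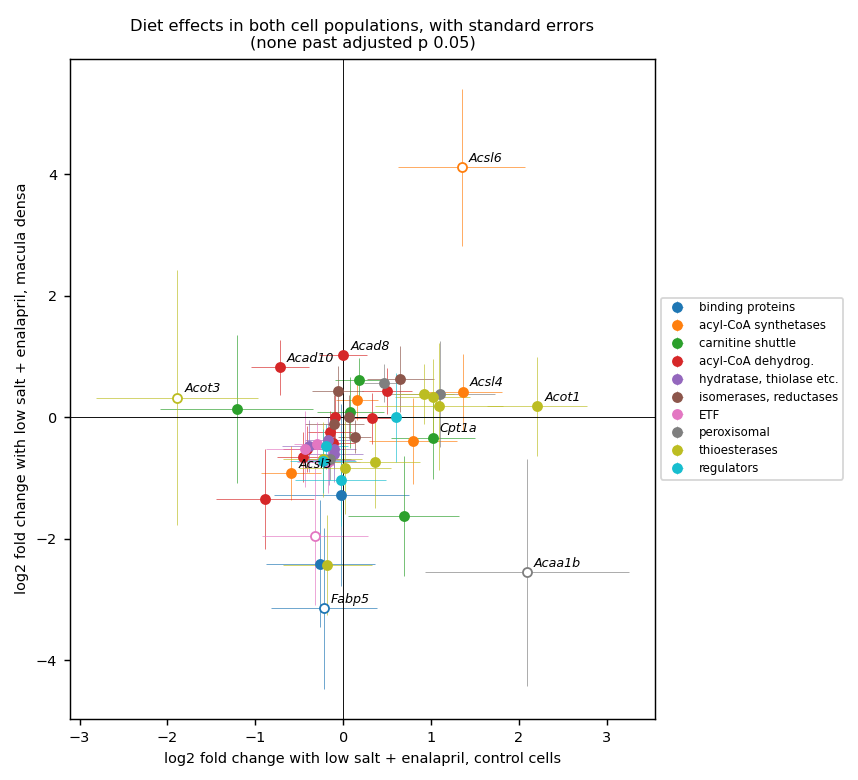
Log2 fold change with LS+E in control cells (x axis) and macula densa cells (y axis) for 54 tested members, with standard errors and colours by role; Acot6 is left out and open points mark members with at most 3 counts in a macula densa group. Acot1 lies farthest right, at 2.21, without a counterpart in macula densa cells (0.18), and no member passed the test on either axis.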

How the data were processed

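RNA of sorted mouse kidney cells was sequenced in 12 libraries (SMARTer Stranded Total-RNA Pico v2 kit, per the labels). The deposited table holds estimated counts per gene: 13.6% of its values are not whole at a tolerance of 0.001, and the authors' lowest gene total is 10. The submitters' processing notes name STAR 2.61, Partek and mm10; the counting and strand settings are not given in the sources used here. Table positions matched GENCODE M21 for 23351 of 23378 genes. Counts were rounded and tested with edgeR 4.0.16 (R 4.3.3, limma 3.58.1): filterByExpr (minimum count 10, total 15), TMM, quasi-likelihood fit of 4 groups over 12 libraries, Benjamini-Hochberg over all genes, threshold 0.05. The fit was tested on simulated data. DESeq2 1.42.0 was an alternative, beside other scalings, filters, thresholds, blocks and leaving out each library. Intervals and floors cover counting error only.

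Members, lists and tests were chosen with earlier results of these data known. Values are printed for called members and the one with the highest mean CPM in each role, 5 listed genes per comparison with the smallest p, the first markers of a list, and genes said to be chosen after their values were seen. Besides the lists given in the report, the averaged comparison called 6 of 9 thick ascending limb, 5 of 6 macula densa and 1 of 6 distal convoluted and connecting tubule markers higher, and 8 of 8 principal cell, 4 of 7 intercalated, 6 of 7 podocyte, 10 of 10 endothelial, 3 of 4 leukocyte, 5 of 6 fibroblast and mesangium, 4 of 6 smooth muscle and renin, 0 of 1 adipocyte and 0 of 5 erythroid markers lower. Added after seeing the data: the 8 libraries sharing a description number, the fit without 3 control-cell libraries, and summed near-identical genes. Single values of 2 genes are not reported here.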

Additional observations from a re-analysis of the deposited data

Results flagged for a closer look

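In 3 of 112 sets of 4 control-cell libraries checked over the members, 1 library lay far from the other 3, by the gap to its neighbour against the range of the set (Dixon's criterion at 95%). Chance gives about 1 in 20, or 5.6 sets here, so the number of such sets is not above it. Etfdh, the ubiquinone oxidoreductase of electron transfer flavoprotein, was at a log2 CPM of 3.94 (15.1 CPM) in replicate 4 of control cells on control diet, and at 2.92 to 3.02 in the others. Fabp4 was at -1.2 (0.207 CPM) in the same library and at 2.27 to 2.79 in the others. Decr1, the mitochondrial dienoyl-CoA reductase, was at 2.34 (4.83 CPM) in replicate 3 of control cells on LS+E and at 2.69 to 2.74 in the others.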

How the results depend on the processing

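Counts of calls depended on the processing, directions of named members mostly did not. In the order control diet, LS+E, averaged, members called were 3, 2 and 7 and genes called 938, 1031 and 3027. Leaving out 1 library at a time gave 0 to 11, 0 to 5 and 2 to 15 members and 122 to 2490, 194 to 1894 and 1680 to 3968 genes. The lowest averaged counts came without macula densa replicate 2 of either diet, and the highest of all 3 comparisons without control-cell replicate 4 on control diet. Without that library the member median for diet in control cells turned from -0.08 to 0.25, with a range of -0.11 to 0.25 over the omissions. Genes called for diet were 0 to 1 in macula densa and 1 to 5 in control cells. Acsl5 on control diet (adjusted p 0.00256 to 0.245) and Acad10 on LS+E (0.0195 to 0.198) were lost in 11 and 10 of the 12 omissions, while averaged Acsl3 and Acsl5 were kept in all. Fabp4, Fabp5, Acsl4 and Ppargc1b averaged reached 0.14, 0.0987, 0.138 and 0.166.

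DESeq2's test gave 6 members and 2000 genes on control diet, 1922 genes on LS+E, 93 and 74 genes for diet in macula densa and control cells (0 and 1 members) and 13 for the difference of diet effects. A mean of 5 CPM gave 622 genes on control diet and 1874 averaged. No filter gave 1 and 0 members on the 2 diets. Library totals alone gave 6 members on control diet and 12 averaged, with the median of all genes shifted to 0.12, 0.16 and 0.14 and the member medians to 0.53, 0.26 and 0.37. Fitting the compared groups alone gave 1 and 4 members, 468 genes on control diet, and 105 and 0 genes for diet in macula densa and control cells. A threshold of 0.01 left 0, 0 and 2 members and 241, 251 and 1301 genes. Where no count of all genes stands beside a count of members, that count is no result about the members. The cause of these differences was not tested.

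With the title's replicate number as a block, members called were 1, 0 and 5, genes 378, 396 and 1908, and 0 for diet in control cells; Ppargc1a turned to 0.12. With the number in the descriptions as a block, over the 8 libraries that share one, they were 9, 5 and 16 members and 2217 and 2192 genes on the 2 diets, and Ppargc1a turned to 0.04. The same 8 libraries without the block gave 10, 7 and 16 members, 2333 and 2281 genes, 22 and 2 genes for diet, and 0.03 for Ppargc1a. These 8 leave out the 3 control-cell libraries with the highest member sums, and replicate 1 on control diet. Both fits thus repeat the removal of those 3 libraries and are no separate support, though they count among the alternatives given for averaged calls. The labels do not say that either number pairs animals, and same-numbered pairs in the descriptions had deviations correlated at r of 0.227, -0.0183, 0.0753 and -0.0371. With 2 macula densa libraries per diet, the deviations of one are those of the other with the sign reversed. These correlations can therefore neither show nor exclude pairing. Whether same-numbered libraries share an animal was not settled, and they are treated as sharing only a number.

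Without the 3 control-cell libraries, members were 12, 7 and 21, genes 3123 and 2415 on the 2 diets, 21 for diet in macula densa and 2 for the difference of diet effects; the averaged member median was 0.45 and Ppargc1a 0.21. Adding Fabp3-ps1 turned Fabp3 to 0.13. At 1 count per 0.0769 to 0.245 CPM, members under about 1 CPM rest on few counts.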
